A study of Mus musculus with 10 samples.

Results

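Goblet cell genes are described here by their open chromatin in mouse colon organoids: *Muc2*, *Clca1*, *Clca3b*, *Tff3*, *Fcgbp*, *Agr2*, *Spdef*, *Zg16*, *Spink4* and *Gcnt3*. These 10 genes were taken as a fixed list of goblet cell products and regulators, and every peak within the gene body or 5 kb on each side of it was kept (GRCm38, GENCODE mouse release M21). All 10 genes had at least 1 peak, among 17290 protein-coding genes that did. Peaks that overlapped by at least 1 bp in any of the 10 libraries were merged into sites, which gave 40 sites at these genes out of 85680 in all. None of the 40 sites lay over the start of another protein-coding gene. The question was which of these sites opened when the organoids differentiated, in each genotype.

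Goblet cells coat the colon with mucus. *Spdef* is the transcription factor that drives their maturation, *Agr2* and *Gcnt3* help to fold and glycosylate the mucin in the secretory pathway, and *Muc2* is the mucin that forms the gel. *Fcgbp*, *Zg16* and *Clca1* are secreted into that gel, while *Tff3* and *Spink4* are small secreted peptides. The aryl hydrocarbon receptor (AHR) senses dietary and microbial ligands and binds DNA as a dimer with ARNT.

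Omni-ATAC-seq, in which a transposase cuts and tags open chromatin, was applied to live sorted cells of colon organoids grown from crypts. WT organoids came from littermates on a C57BL/6 background. AHR KO organoids came from Vil-Cre Ahr fl/fl mice, in which the Villin promoter drives Cre in gut epithelium, so the loss is limited to epithelial cells. ENR medium holds EGF, Noggin and R-spondin1. WENR medium adds Wnt3a, a p38 inhibitor, an ALK5 inhibitor and nicotinamide, and keeps organoids in a regenerative state. For d4 ENR, organoids were moved from WENR to ENR and taken 4 days later. There were 2 WT and 3 AHR KO libraries in WENR, and 3 WT and 2 AHR KO libraries in d4 ENR. The age and sex of the mice are not given in the sources used here, and libraries with the same number are not stated to share an organoid line. P-values therefore measure the spread between these libraries, which may in part be technical.

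Between 41686181 and 49126792 fragments lay behind each list of peaks in WENR, and between 30354729 and 36307860 in d4 ENR. Depth thus did not overlap between media. Fragments were also shorter after differentiation, with a mean length per library of 156 to 200 bp for WT and 202 to 221 bp for AHR KO. In WENR this mean stayed between 235 and 255 bp. The parts of depth and fragment length in the differences between media were not tested. Nor was the part of fragment length in the differences between genotypes in d4 ENR. The lists held between 33433 and 65308 peaks. Peaks covered 61.8 to 67.2 Mb of the genome in WENR. In d4 ENR they covered 26.2, 32.1 and 41.0 Mb in WT and 46.6 and 50.1 Mb in AHR KO libraries, so that covered length moved with medium and, in d4 ENR, with genotype. WT d4 ENR replicate 1 stood apart, with the shortest list and a median log2 fold enrichment of 1.82, against 2.1996 to 2.38 in the other libraries. The start of *Ahr* held a peak in all 10 libraries, and peaks over *Ahr* with 5 kb on each side covered 1216 to 2544 bp in WT and 3250 to 7017 bp in AHR KO libraries. Peaks do not reveal whether the floxed exon is gone, so the knockout was not checked by them. A peak lay over the start of 9 or 10 of 10 epithelial marker genes in every library, of at most 1 of 6 mesenchymal and 1 of 4 endothelial genes, and of none of 6 immune genes.

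In the annotation, *Muc2* (ENSMUSG00000025515.15) lies at chr7:141690340-141754693 and *Fcgbp* (ENSMUSG00000047730.17) at chr7:28071236-28120862, both on the plus strand. *Zg16* (ENSMUSG00000049350.6) lies at chr7:127050156-127087328 on the minus strand. *Clca1* (ENSMUSG00000028255.6) at chr3:145003817-145032776 and *Clca3b* (ENSMUSG00000037033.9) at chr3:144822623-144849357 are near each other on the minus strand. *Tff3* (ENSMUSG00000024029.4) at chr17:31125306-31129646 and *Spdef* (ENSMUSG00000024215.14) at chr17:27714352-27728955 are also on the minus strand, as is *Gcnt3* (ENSMUSG00000032226.5) at chr9:70031496-70038088. *Agr2* (ENSMUSG00000020581.11) at chr12:35992907-36004087 and *Spink4* (ENSMUSG00000028415.4) at chr4:40920052-40931395 are on the plus strand.

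The sequences of 6 sites are shown. *Muc2* site 2, *Clca1* site 1 and *Gcnt3* site 2 were lower or had no peak in AHR KO WENR, *Muc2* site 1 had a peak in WENR alone, and *Fcgbp* site 1 and *Spdef* site 2 stand for sites that held a peak in every library. Each is the 300 bp of a site that most libraries covered, read from GRCm38.p6 on the strand of the gene. *Muc2* site 2 lies just before the annotated start of *Muc2*, at chr7:141689888-141690187. *Muc2* site 1 lies farther upstream, at chr7:141687482-141687781. *Clca1* site 1 lies downstream of *Clca1*, at chr3:145001063-145001362, and *Gcnt3* site 2 lies upstream of *Gcnt3*, at chr9:70039690-70039989. *Fcgbp* site 1 spans the start of *Fcgbp*, and the stretch shown lies just before it, at chr7:28070866-28071165, and *Spdef* site 2 lies in an intron of *Spdef*, at chr17:27716856-27717155. Capitals mark matches to the motifs searched, on either strand.
Muc2 site 2: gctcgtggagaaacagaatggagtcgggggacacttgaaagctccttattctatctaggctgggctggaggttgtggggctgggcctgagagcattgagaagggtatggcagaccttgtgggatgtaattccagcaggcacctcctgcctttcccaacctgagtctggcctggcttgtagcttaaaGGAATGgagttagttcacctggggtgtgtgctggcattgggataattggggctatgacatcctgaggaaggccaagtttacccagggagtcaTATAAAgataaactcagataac
Muc2 site 1: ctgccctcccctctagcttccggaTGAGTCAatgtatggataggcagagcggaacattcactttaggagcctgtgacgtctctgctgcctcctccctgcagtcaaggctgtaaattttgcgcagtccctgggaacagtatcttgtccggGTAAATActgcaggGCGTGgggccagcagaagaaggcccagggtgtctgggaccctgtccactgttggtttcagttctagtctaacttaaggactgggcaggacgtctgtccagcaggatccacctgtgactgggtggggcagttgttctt
Clca1 site 1: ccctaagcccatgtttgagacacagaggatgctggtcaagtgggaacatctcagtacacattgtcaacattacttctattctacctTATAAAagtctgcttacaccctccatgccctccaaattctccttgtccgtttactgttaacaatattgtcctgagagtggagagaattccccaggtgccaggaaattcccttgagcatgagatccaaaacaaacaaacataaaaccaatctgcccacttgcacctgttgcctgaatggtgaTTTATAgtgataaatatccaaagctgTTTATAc
Gcnt3 site 2: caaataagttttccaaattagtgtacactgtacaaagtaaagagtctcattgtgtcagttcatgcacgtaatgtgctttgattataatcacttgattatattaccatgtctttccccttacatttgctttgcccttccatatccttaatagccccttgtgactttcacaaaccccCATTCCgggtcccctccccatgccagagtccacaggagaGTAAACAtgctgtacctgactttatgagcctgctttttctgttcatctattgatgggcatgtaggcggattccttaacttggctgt
Fcgbp site 1: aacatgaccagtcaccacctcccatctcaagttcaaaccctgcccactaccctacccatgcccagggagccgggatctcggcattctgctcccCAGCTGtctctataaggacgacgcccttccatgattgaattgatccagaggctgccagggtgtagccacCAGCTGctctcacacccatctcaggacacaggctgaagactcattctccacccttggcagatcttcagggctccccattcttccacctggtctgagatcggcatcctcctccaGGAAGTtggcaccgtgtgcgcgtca
Spdef site 2: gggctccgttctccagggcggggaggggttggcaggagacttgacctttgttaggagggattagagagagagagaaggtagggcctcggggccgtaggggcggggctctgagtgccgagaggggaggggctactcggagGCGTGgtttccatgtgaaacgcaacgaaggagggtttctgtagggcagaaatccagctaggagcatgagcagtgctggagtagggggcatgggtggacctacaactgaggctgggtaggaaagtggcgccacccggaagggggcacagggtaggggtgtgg

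The letters searched were GCGTG for the AHR:ARNT core, GGAATG for TEAD, TGANTCA for AP-1, CAATAAA or CCATAAA for CDX2, TGTTTAC or TATTTAC for FOXA, CAGCTG or CAGATG for the E-box of ATOH1, GGAAGT for ETS factors, CAAAGTCCA for HNF4 and TATAAA for the TATA box. No motif's letters contain those of another, and overlapping matches were counted separately. The stretch before *Muc2* held 1 match to TEAD and 1 to the TATA box, and the upstream *Muc2* stretch held 1 match each to the AHR:ARNT core, AP-1 and FOXA. The *Clca1* stretch held 3 matches to the TATA box. The *Gcnt3* stretch held 1 match to TEAD and 1 to FOXA. *Fcgbp* site 1 held 2 matches to the E-box and 1 to ETS, and *Spdef* site 2 held 1 to the AHR:ARNT core. Such short strings are common, since GCGTG was found in the middle 300 bp of 21.9% of all sites, TEAD in 18.2%, AP-1 in 19.4%, CDX2 in 14.4%, FOXA in 10.5%, the E-box in 32.9%, ETS in 22.2%, HNF4 in 1.23% and the TATA box in 18.9%. A match is a description of the letters and not of binding.

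**Figure D1:**
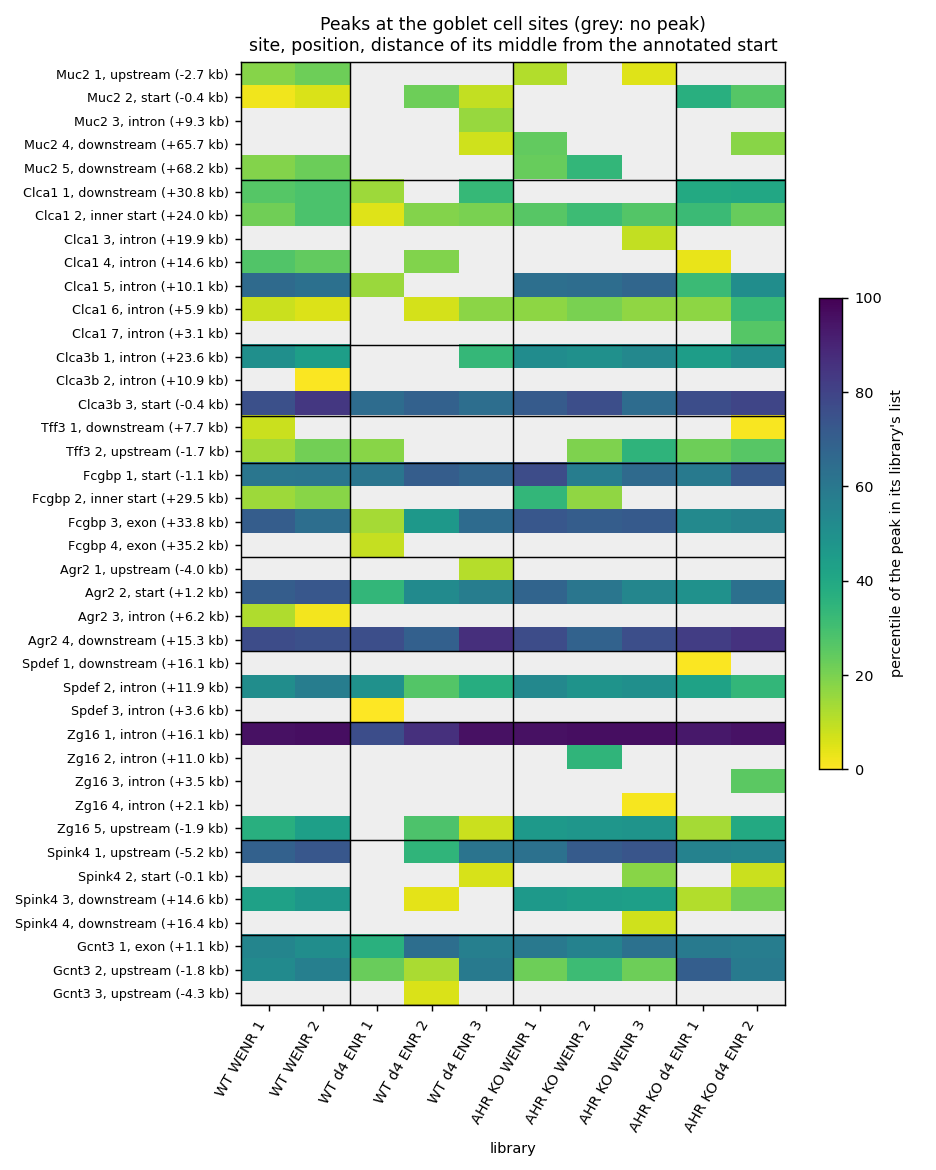
Each row is a site at a goblet cell gene, with its position and the distance of its middle from the annotated start in kb, and each column is a library. Colour gives the percentile of the peak among all peaks of its library by significance, and grey means that no peak was called. Sites such as Zg16 1, Agr2 4 and Clca3b 3 held a peak in every library, whereas Muc2 2 and Clca1 1 held none in the 3 AHR KO WENR libraries.

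Peaks at the 40 sites fell into a core that was open throughout and many that were called rarely. A peak was called in all 10 libraries at 10 sites, which is 25.0% of the 40, against 32.9% of all sites. These were 2 sites each of *Fcgbp*, *Agr2* and *Gcnt3* and 1 each of *Clca1*, *Clca3b*, *Spdef* and *Zg16*. Another 13 sites, or 32.5%, were called in 1 library, against 14.4% of all sites. By position, 15 sites lay in introns, 8 downstream and 7 upstream of the gene, 5 over the annotated start, 3 in exons and 2 over the start of a shorter transcript.

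The start itself held a peak at some goblet cell genes and not at others. In the stretch from 1 kb upstream to 100 bp downstream of the annotated start, *Clca3b*, *Fcgbp* and *Agr2* held a peak in all 10 libraries. *Muc2* held a peak there in 6 libraries and *Spink4* in 3, whereas *Clca1*, *Tff3*, *Spdef*, *Zg16* and *Gcnt3* held none in any library. For *Zg16* the start used is that of the longest annotated transcript, so the start of the shorter transcripts lies inside the gene body used here. No *Zg16* site lay over the start of any of its annotated transcripts. The strongest site of the list was *Zg16* site 1, in an intron at chr7:127070633-127071785, whose peaks stood between percentile 76.2 and percentile 96.2 of their lists.

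A site was called opened in a genotype when all its d4 ENR libraries and none of its WENR libraries held a peak. No site at the goblet cell genes opened in WT, against 0.563% of all sites. In AHR KO, 2 of the 40 sites opened, against 2.86% of all sites, namely *Muc2* site 2 and *Clca1* site 1. Both had been called in both WT WENR libraries and in 2 of 3 WT d4 ENR libraries. A peak that appeared on differentiation in AHR KO organoids was thus already present in WT organoids in WENR.

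*Muc2* encodes the gel-forming mucin of the colon. Its site 2, at chr7:141689409-141690563, spans the annotated start. Its fold enrichment, the pileup of fragments over the local background that the peak caller estimates in the same library, was 2.31 and 2.57 in WT WENR. No peak was called in any of the 3 AHR KO WENR libraries, nor in WT d4 ENR replicate 1. In WT d4 ENR the other libraries gave 3.37 and 2.74, and AHR KO d4 ENR gave 3.75 and 3.49. All of these were weak peaks, at percentile 2.08 and 5.84 of their lists in WT WENR, 21.9 and 9.04 in WT d4 ENR, and 37.1 and 26.2 in AHR KO d4 ENR. The AHR KO d4 ENR peaks were the highest of the 6 in fold enrichment and in percentile. When every list was shortened to its 33433 most significant peaks, the site was kept in 1 library, AHR KO d4 ENR replicate 1, so the pattern rests on peaks near the caller's threshold.

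The other *Muc2* sites ran the opposite way or were called in few libraries. Site 1, upstream at chr7:141687452-141687817, and site 5, downstream at chr7:141758174-141758930, each held a peak in both WT WENR libraries, and neither genotype had one in d4 ENR. In AHR KO WENR, each was called in 2 of 3 libraries. Sites 3 and 4 were called in 1 and 3 libraries.

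*Clca1* is a secreted protease that processes the *Muc2* network. Its site 1, downstream at chr3:145001007-145003028, had fold enrichments of 2.50 and 2.86 in WT WENR and no peak in AHR KO WENR. It gave 2.52 and 3.49 in WT d4 ENR, with no peak in replicate 2, and 3.43 and 3.88 in AHR KO d4 ENR. The covered part of the site was 390 and 835 bp in WT WENR and 1827 and 685 bp in AHR KO d4 ENR. At a −log10 q of at least 5, this site still counted as opened in AHR KO. It did not with lists of equal length, nor where peaks had to cover 50% of a site, a setting under which *Clca1* site 2 counted as opened in its place. Reads from the related Clca genes next to *Clca1* and *Clca3b* may be shared or dropped in alignment, so values at both genes are uncertain.

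*Gcnt3* encodes the enzyme that branches the sugar chains of mucins. Its site 2, upstream at chr9:70039506-70040317, held a peak in every library, so it could not be opened by the rule on presence, but its level followed the pattern of *Muc2* site 2 and *Clca1* site 1. Fold enrichment was 3.72 and 3.91 in WT WENR, and 2.94, 3.09 and 2.79 in AHR KO WENR. In d4 ENR it was 2.70, 2.71 and 4.05 in WT and 3.88 and 4.11 in AHR KO libraries. The AHR KO libraries in WENR were all below the WT libraries there and below both AHR KO d4 ENR libraries, while WT d4 ENR overlapped every other group. With all lists at the same length, *Gcnt3* site 2 was the only goblet cell site that counted as opened in AHR KO, against 3.26% of all sites, and the only WT-only site in WENR, against 0.610%.

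**Figure D2:**
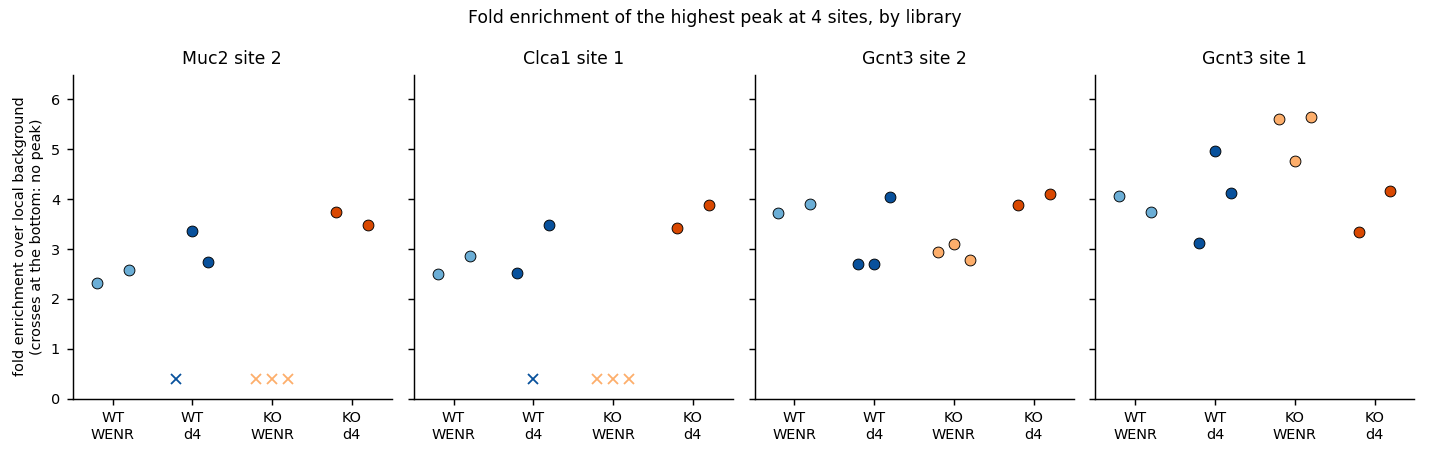
Fold enrichment of the highest peak at Muc2 site 2, Clca1 site 1, Gcnt3 site 2 and Gcnt3 site 1, with 1 point per library, and a cross near the bottom for a library with no peak. At the first 3 sites the AHR KO WENR libraries have no peak or values from 2.79 to 3.09, below the AHR KO d4 ENR values of 3.43 to 4.11, whereas at Gcnt3 site 1 the AHR KO WENR values of 4.77 to 5.66 lie above both AHR KO d4 ENR values of 3.34 and 4.17.

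A site was called lost when all WENR libraries of a genotype and none of its d4 ENR libraries held a peak, which was so at 4 of 40 sites in WT, against 12.8% of all sites. They were *Muc2* sites 1 and 5, *Fcgbp* site 2 over the start of a shorter transcript and *Agr2* site 3 in an intron. No site was lost in AHR KO by the rule, against 9.49% of all sites, but *Muc2* sites 1 and 5 and *Fcgbp* site 2 were called in 2 of 3 AHR KO WENR libraries and in neither d4 ENR library. *Agr2* site 3 was called in no AHR KO library. The difference between genotypes in lost sites was not tested. None of the 4 WT losses was left with lists of equal length, against 3.36% of all sites.

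Within WENR, 4 of 40 sites were called in both WT and in no AHR KO library, against 0.759% of all sites. They were *Muc2* site 2, *Clca1* sites 1 and 4 and *Agr2* site 3. No goblet cell site was called in the AHR KO libraries alone in WENR, against 1.18%. In d4 ENR, 0 sites were AHR KO-only, against 2.84%, and 0 were WT-only, against 0.0864%. The 4 sites that were WT-only in WENR were all weak, at percentile 1.59 to 28.3 of the WT WENR lists. In AHR KO d4 ENR, *Muc2* site 2 and *Clca1* site 1 were called in both libraries and *Clca1* site 4 in 1. With lists of equal length none of these 4 sites met the rule, and 1 other site, *Gcnt3* site 2, did.

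Over the 10 windows together, peaks covered 20194 and 19955 bp in WT WENR and 8121, 10278 and 12616 bp in WT d4 ENR. In AHR KO they covered 15238, 16330 and 18454 bp in WENR and 16939 and 15832 bp in d4 ENR. The WT values fell apart by medium, whereas those of AHR KO overlapped. The number of sites called went the same way, with 25 and 25 in WT WENR, 15, 17 and 20 in WT d4 ENR, 20, 20 and 22 in AHR KO WENR, and 21 and 24 in AHR KO d4 ENR.

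Covered length over the whole genome fell too, so the windows were also set against it. They held 327 and 318 bp per Mb of covered length in WT WENR, and 310, 321 and 308 in WT d4 ENR. In AHR KO the share was 246, 260 and 275 bp per Mb in WENR and 364 and 316 in d4 ENR. On this scale, chosen after the values were seen, the WT media overlapped and AHR KO WENR lay below all other libraries. With lists of equal length, the mean difference between AHR KO and WT in WENR shrank from −3400 to −549 bp. No test was made over the summed windows.

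**Figure D3:**
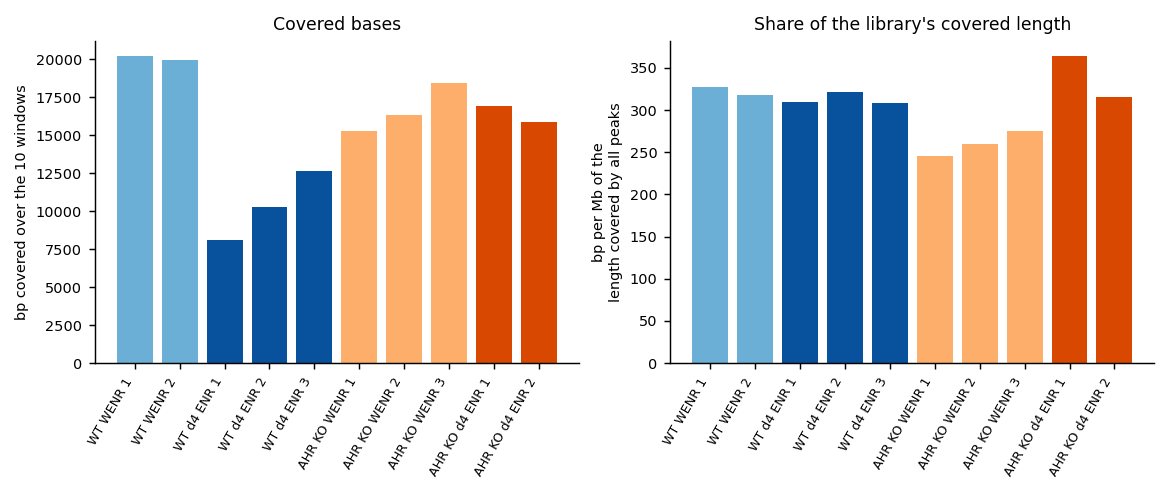
Left, bases covered by peaks over the 10 goblet cell windows in each library, and right, the same bases in bp per Mb of the length covered by all peaks of that library. On the left the WT d4 ENR libraries are lowest, at 8121 to 12616 bp, and on the right the AHR KO WENR libraries are lowest, at 246 to 275 bp per Mb.

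For single genes, the effect of the medium on covered bases was tested by permuting media within genotypes (100 arrangements, so that p cannot fall below 0.02). Of the 10 genes, 3 were lower in d4 ENR past an adjusted p of 0.05, against 51.3% of all genes, and 0 were higher, against 0.301%. Before adjustment the counts were the same, against 60% lower and 0.428% higher of all genes. The 3 genes were *Fcgbp*, *Agr2* and *Spink4*. The median difference over the 10 genes was −360.2 bp, against −576 bp over all genes.

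*Fcgbp* is a large protein of the mucus gel that associates with *Muc2*. Peaks at *Fcgbp* covered 3772 and 4005 bp in WT WENR and 1484, 772 and 1527 bp in WT d4 ENR. In AHR KO they covered 2438, 3368 and 2063 bp in WENR and 1911 and 1603 bp in d4 ENR. Every d4 ENR library lay below every WENR library, and the mean difference was −1747 bp (exact permutation test, 2-sided, p = 0.02, adjusted p = 0.0387).

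*Agr2* is a disulphide isomerase of the endoplasmic reticulum that mucin folding depends on. Its peaks covered 3898 and 3672 bp in WT WENR and 2595, 2813 and 3066 bp in WT d4 ENR. In AHR KO they covered 3652, 4045 and 5489 bp in WENR and 2997 and 2860 bp in d4 ENR. Again no d4 ENR library reached a WENR library, with a mean difference of −1214 bp (exact permutation test, p = 0.02, adjusted p = 0.0387).

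*Spink4* is a small secreted protein of the serine protease inhibitor family. Its peaks covered 1334 and 1273 bp in WT WENR and 0, 684 and 177 bp in WT d4 ENR. In AHR KO they covered 1160, 1166 and 1917 bp in WENR and 1072 and 1088 bp in d4 ENR. The difference was −675 bp (exact permutation test, p = 0.02, adjusted p = 0.0387). With lists of equal length the adjusted p was 0.0885 for *Fcgbp* and 0.0549 for *Agr2* and *Spink4*, and as a share of covered length *Agr2* turned to 484 bp higher in d4 ENR. Leaving out any of the 10 libraries raised the adjusted p of the 3 genes to between 0.0587 and 0.0947, since fewer arrangements remain.

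The other 7 genes did not pass the test. Their mean differences ran from −599 bp for *Clca3b* to 261 bp for *Clca1*, and adjusted p was 0.0904 for *Zg16* and 0.181 to 0.834 for the others. Peaks at *Zg16* covered 1918 and 1856 bp in WT WENR, 765, 1163 and 1227 bp in WT d4 ENR, 1725, 1732 and 2146 bp in AHR KO WENR and 1370 and 1995 bp in AHR KO d4 ENR. At *Spdef* they covered 804 and 561 bp in WT WENR, 552, 290 and 387 bp in WT d4 ENR, 758, 523 and 713 bp in AHR KO WENR and 758 and 379 bp in AHR KO d4 ENR. For both genes the media did not overlap in WT and overlapped in AHR KO. Within WT alone, d4 ENR libraries were all lower than WENR libraries at 9 of 10 genes, against 80.6% of all genes, with *Muc2* as the exception, and all higher at none, against 0.451%. Within AHR KO, they were all lower at *Fcgbp*, *Agr2* and *Spink4* alone, against 55.3% of all genes, and all higher at *Clca1* and *Tff3*, against 5.84%. With 2 against 3 libraries the smallest p is 0.2, so these are orders of libraries and not tests.

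**Figure D4:**
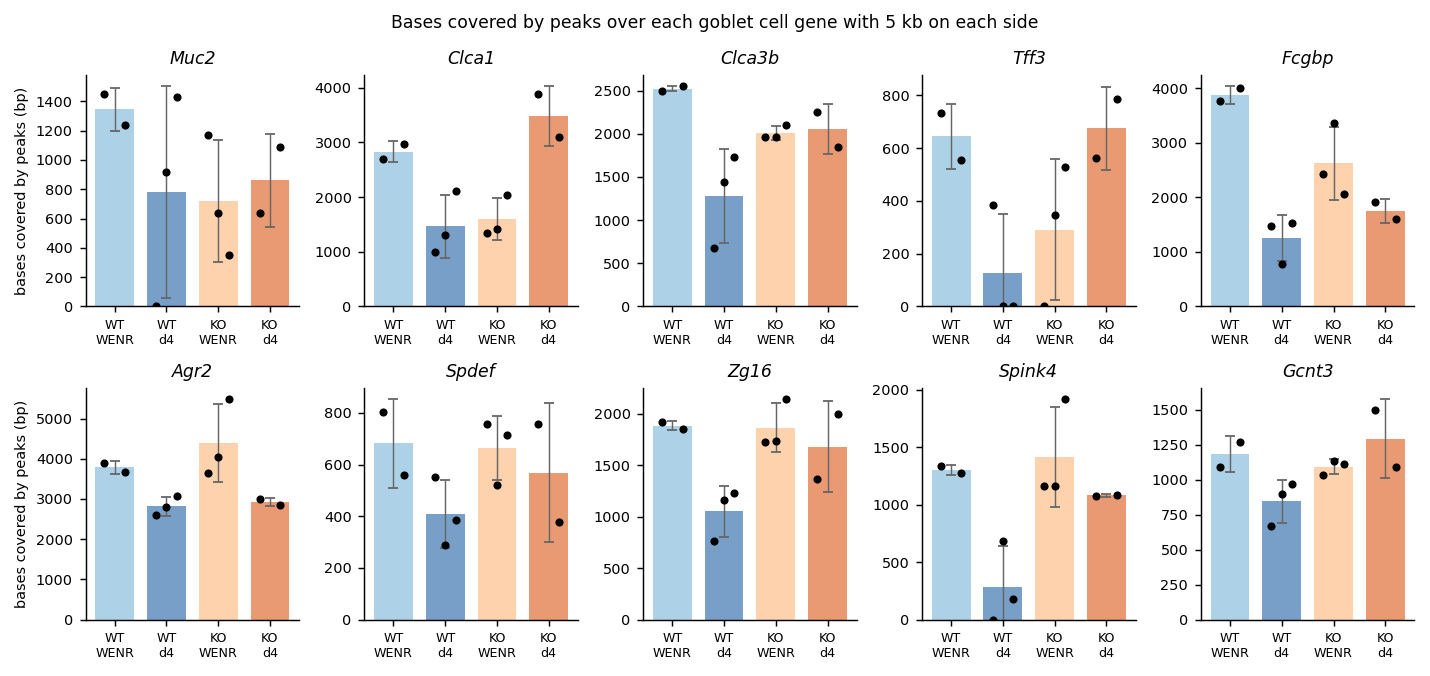
Bases covered by peaks over each of the 10 genes with 5 kb on each side. Bars are group means, error bars the SD (n = 2 or 3) and points the libraries. Fcgbp, Agr2 and Spink4 were lower in d4 ENR in both genotypes, whereas Clca1 ranged from 3091 to 3877 bp in AHR KO d4 ENR, above its AHR KO WENR range of 1334 to 2037 bp.

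Genotypes were then compared within media. In WENR, AHR KO libraries were all below WT libraries at 5 genes, against 11.1% of all genes, and all above at none, against 11.8%. The 5 genes were *Muc2*, *Clca1*, *Clca3b*, *Tff3* and *Fcgbp*. In d4 ENR, AHR KO libraries were all above WT libraries at 7 genes, against 54.4%, and all below at none, against 0.237%. Averaged over media, no goblet cell gene differed between genotypes past an adjusted p of 0.05 by the exact permutation test. None did at an unadjusted p under 0.05 either, against 11.9% of all genes that were higher and 0.0925% that were lower in AHR KO. After adjustment 0 genes of the genome passed, and the smallest adjusted p of any gene in this test was 0.304. This test also has a smallest p of 0.02, so passing would have needed a large share of all genes at that floor.

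The effect of the medium was set against genotype by permuting genotypes within media. A p of 0.02 in this test needs the AHR KO libraries to be the lowest in WENR and the highest in d4 ENR, or the reverse. It tests against no effect of genotype in either medium. *Clca1*, *Clca3b*, *Tff3* and *Fcgbp* reached it, all with the higher effect in AHR KO, and each had an adjusted p of 0.325. At an unadjusted p of at most 0.05 the count was the same 4 of 10 genes, against 11.1% of all genes. None had the lower effect at that threshold, against 0.0347%. Of all genes, 0 passed after adjustment, and 0.325 was the smallest adjusted p of any gene. With p bounded at 0.02, passing would have needed a large share of all genes at that floor, so the 0 is not evidence of no effect.

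For *Clca1*, peaks covered 2696 and 2968 bp in WT WENR, 990, 1298 and 2105 bp in WT d4 ENR, 1334, 1410 and 2037 bp in AHR KO WENR and 3877 and 3091 bp in AHR KO d4 ENR. Coverage was thus lower after differentiation in WT and higher after it in AHR KO, with a difference of 3258 bp between the effects. *Tff3*, the trefoil peptide of goblet cells, had 732 and 556 bp in WT WENR, 385, 0 and 0 bp in WT d4 ENR, 0, 345 and 527 bp in AHR KO WENR and 563 and 786 bp in AHR KO d4 ENR, a difference of 899.5 bp. *Clca3b*, a relative of *Clca1* in the same gene cluster, had 2501 and 2549 bp in WT WENR and 678, 1445 and 1729 bp in WT d4 ENR. In AHR KO it had 1967, 1966 and 2100 bp in WENR and 2258 and 1850 bp in d4 ENR, which overlap, and the difference between effects was 1284 bp. For *Fcgbp* the difference was 1762 bp, with lower values in d4 ENR in both genotypes.

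*Muc2* and *Gcnt3* did not pass this test before adjustment. *Muc2* had 1448 and 1242 bp in WT WENR, 0, 918 and 1431 bp in WT d4 ENR, 1173, 638 and 350 bp in AHR KO WENR and 638 and 1086 bp in AHR KO d4 ENR, which overlap in both genotypes. *Gcnt3* gave an unadjusted p of 0.06 by the exact permutation test, with 1495 and 1094 bp in AHR KO d4 ENR against 672, 895 and 967 bp in WT d4 ENR.

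Levels of the 10 sites called in every library were compared on the log2 fold enrichment, with each library centred on its median over the 28205 such sites, using limma with Benjamini-Hochberg adjustment over those sites. In WT, 2 goblet cell sites were higher in d4 ENR, against 27.3% of all sites, and 1 was lower, against 15.1%. In AHR KO, 1 was higher, against 9.29%, and 1 lower, against 7.40%. Fold enrichment is relative to the background around each peak, so the same sites are also given by their pileup per 1000000 fragments of the library, without and with the same centring. This pileup is scaled for the number of fragments and not for their length, which differed between media. A centred difference is relative to the median site, so that a site that fell less than the median site is higher after centring.

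*Gcnt3* site 2 rose on both scales in AHR KO. Its log2 fold enrichment was 0.48 ± 0.14 (SE) higher in d4 ENR than in WENR (limma, adjusted p = 0.0327). Its pileup was 0.681, 0.888 and 0.677 per 1000000 fragments in AHR KO WENR and 1.63 and 1.18 in AHR KO d4 ENR, with no overlap before any centring. In WT it was 1.34 and 1.55 in WENR and 0.452, 0.497 and 0.963 in d4 ENR. After centring, the pileup difference in AHR KO was 1.77 (limma, adjusted p = 4.46e-05). The difference between genotypes in the effect of the medium was 0.61 on the log2 fold enrichment and did not pass after adjustment (limma, adjusted p = 0.186). The call in AHR KO was lost in each fit that left out 1 of the 5 AHR KO libraries (adjusted p of 0.0666 to 0.201) and under quantile normalization (adjusted p = 0.175) or with no centring (0.193).

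*Gcnt3* site 1, in an exon at chr9:70036571-70037373, moved the opposite way on fold enrichment. The values were 5.61, 4.77 and 5.66 in AHR KO WENR and 3.34 and 4.17 in AHR KO d4 ENR, which do not overlap, a log2 difference of −0.48 ± 0.12 (SE; limma, adjusted p = 0.0196). Its pileup was 1.08, 1.13 and 1.19 per 1000000 fragments in AHR KO WENR and 1.33 and 1.06 in AHR KO d4 ENR, so the pileup overlapped, and after centring it was 0.94 higher (limma, adjusted p = 0.001). The direction at *Gcnt3* site 1 in AHR KO therefore depends on the scale. Without AHR KO WENR replicate 1 or 3 or AHR KO d4 ENR replicate 1, its adjusted p on fold enrichment was 0.0595 to 0.161. It was 0.193 with no centring and 0.0569 with the replicate number as a block.

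*Fcgbp* site 1, at chr7:28068927-28071411 over the start, was higher in WT d4 ENR on both scales after centring. Its fold enrichment was 3.60 and 3.86 in WT WENR and 3.75, 5.38 and 5.22 in WT d4 ENR, and centring on the library medians separates replicate 1, which stands apart, from the WENR values. The log2 difference was 0.51 ± 0.13 (SE; limma, adjusted p = 0.00685), and 0.55 on the centred pileup (adjusted p = 0.0451). In AHR KO the difference was 0.04 (adjusted p = 0.854), and the difference between genotypes had an adjusted p of 0.252. Without WT WENR replicate 1 the adjusted p in WT was 0.0561, and with no centring it was 0.279. The uncentred pileup was lower in d4 ENR, at 0.713, 0.918 and 0.905 against 1.69 and 1.70 per 1000000 fragments in WT WENR, and peaks over the site covered 615, 550 and 896 bp against 2464 and 2457 bp.

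*Spdef* encodes the ETS-family factor of goblet cell maturation. Its site 2, in an intron at chr17:27716646-27717457, had fold enrichments of 5.07 and 6.37 in WT WENR and 3.53, 3.40 and 3.66 in WT d4 ENR. In AHR KO they were 5.59, 5.25 and 5.17 in WENR and 3.85 and 3.68 in d4 ENR. Every d4 ENR library lay below every WENR library. The log2 difference was −0.52 ± 0.15 (SE; limma, adjusted p = 0.0159) in WT and −0.46 ± 0.15 (SE, adjusted p = 0.0531) in AHR KO. The uncentred pileup was lower as well, at 0.447 to 0.586 in d4 ENR against 0.792 to 0.951 per 1000000 fragments in WENR, but it fell less than at the median site and was 0.79 higher in WT after centring (limma, adjusted p = 0.0143), so the direction relative to other sites depends on the scale. Without WT WENR replicate 2 the adjusted p on fold enrichment in WT was 0.176, and without WT d4 ENR replicate 2 it was 0.0583.

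*Zg16* is a lectin of the mucus layer that binds bacteria. At its site 1 the fold enrichment was 5.71 and 5.87 in WT WENR and 4.40, 6.44 and 7.86 in WT d4 ENR, a centred log2 difference of 0.23 ± 0.09 (SE; limma, adjusted p = 0.048). The pileup went down, from 5.96 and 6.42 per 1000000 fragments in WT WENR to 0.970, 1.41 and 2.39 in WT d4 ENR, and was 0.50 lower after centring (limma, adjusted p = 0.0111), so the direction differs between the scales. The call on fold enrichment was lost when any of 8 libraries was left out (adjusted p of 0.0564 to 0.177). It was also lost with no centring (0.878), with quantile normalization (0.0556), without the trend in limma (0.0607), at a −log10 q of at least 5 (0.211) and with the replicate number as a block (0.263).

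**Figure D5:**
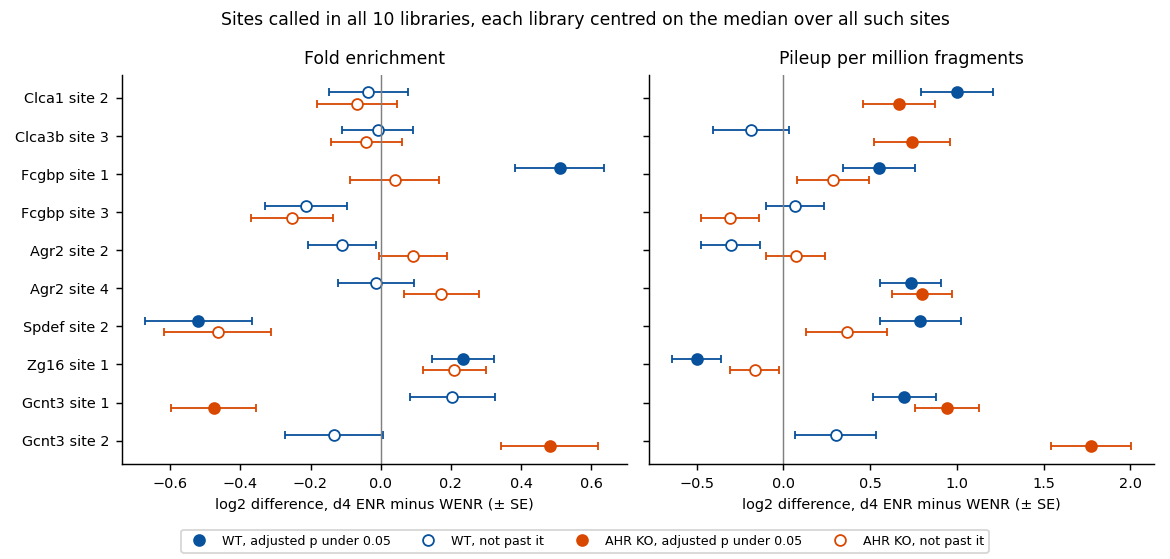
Log2 difference between d4 ENR and WENR, with its SE, at the 10 goblet cell sites called in all libraries, in WT and AHR KO, on fold enrichment (left) and on pileup per 1000000 fragments (right), each centred on the library median. Filled points passed an adjusted p of 0.05. Gcnt3 site 2 is to the right of 0 in AHR KO on both scales, whereas Clca1 site 2, Spdef site 2 and Zg16 site 1 change sides between the scales in both genotypes. Agr2 site 4, Fcgbp site 3 and Gcnt3 site 2 do so in WT, and Clca3b site 3 and Gcnt3 site 1 in AHR KO.

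Between genotypes, none of the 10 sites passed on fold enrichment in either medium, nor in the effect of the medium (limma). In WENR no site of the genome passed either. At an unadjusted p under 0.05, 2 goblet cell sites were higher in AHR KO WENR (*Fcgbp* site 1 and *Gcnt3* site 1), against 1.43% of all sites, and 2 lower (*Agr2* site 2 and *Gcnt3* site 2), against 1.56%. On the pileup scale, 10 sites of the genome were higher and 37 lower past the adjusted threshold, none of them at the goblet cell genes. In d4 ENR 2.62% of all sites were higher and 3.71% lower in AHR KO, with 9.67% and 16% before adjustment and 0 of the 10 sites by either count. In the effect of the medium 0.00355% and 0.0106% passed, and before adjustment *Gcnt3* site 2 was higher, against 5.64%, and *Fcgbp* site 1 and *Gcnt3* site 1 were lower, against 9.42%. *Gcnt3* site 1 in WENR had the lowest p of the 10 sites, with a log2 difference of 0.46 in AHR KO (limma, adjusted p = 0.624).

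The remaining always-called sites showed no difference between media past the threshold on fold enrichment. *Clca3b* site 3, over the start at chr3:144849005-144850525, had log2 differences of −0.01 ± 0.10 (SE) in WT and −0.04 ± 0.10 in AHR KO. *Agr2* site 2, over the start at chr12:35992075-35996078, had −0.11 ± 0.10 in WT and 0.09 ± 0.10 in AHR KO. On the centred pileup, 5 of the 10 sites were higher in WT d4 ENR, against 25.8% of all sites, and *Zg16* site 1 was lower, against 13.4%. In AHR KO, 5 were higher on that scale, against 18.6%, and 0 lower, against 10.7%. *Clca1* site 2, *Agr2* site 4 and *Gcnt3* site 1 were higher on it in both genotypes, and *Clca3b* site 3 in AHR KO by 0.74 (limma, adjusted p = 0.017), and of these sites *Gcnt3* site 1 alone had a call on fold enrichment, in AHR KO and in the opposite direction. Peaks over *Agr2* site 2 covered 1282 to 1647 bp in d4 ENR against 2078 to 4004 bp in WENR, as 1 peak in each d4 ENR library and as 2 peaks in 4 of 5 WENR libraries.

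A longer list of 45 other goblet and secretory genes was examined in the same way, and 42 had a peak. In d4 ENR, 16 of the 42 were lower past the adjusted threshold, against 51.3% of all genes, and 0 higher, against 0.301%. The median difference was −485 bp, against −576 bp over all genes. The 4 with the largest change were *Muc13* and *Muc3*, which are membrane mucins, *Creb3l1*, a transcription factor of the secretory pathway, and *Clca2*. *Muc13* went from 16497 ± 256 bp (SD, n = 2) to 7678 ± 4505 bp (SD, n = 3) in WT and from 16523 ± 893.7 bp (SD, n = 3) to 13767 ± 866.9 bp (SD, n = 2) in AHR KO, a mean difference of −5787 bp (exact permutation test, p = 0.02, adjusted p = 0.0387). The differences were −3392 bp for *Creb3l1*, −3116 bp for *Muc3* and −3104 bp for *Clca2*, each with the same p. Within WENR, AHR KO libraries were all below WT at 11 of the 42 genes, against 11.1% of all genes, and all above at 3, against 11.8%. Of 19 genes of absorptive colonocytes, 7 were lower in d4 ENR and 0 higher, against the same 51.3% and 0.301% of all genes, with a median of −589.6 bp.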

How the data were processed

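Omni-ATAC-seq peaks of 10 libraries of mouse colon organoids were used, grouped by the genotype, medium and number in the labels. The authors trimmed reads, aligned them to GRCm38 with BWA in the nf-core/atacseq pipeline, filtered them and ran MACS 2.2.7.1 separately on every library, using paired ends and no control. Broad regions were kept at a q value of 0.1 and narrow ones at 0.05, and the local background came from windows of 10000 bp. No replicates were pooled. The deposited files give each peak's pileup, a coverage signal in fragments that is not scaled for depth, its fold enrichment over the local background, and −log10 p and q values. No counts of reads over regions were at hand, so no count test was made.

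The genes and lists were chosen with earlier results of these data known. All 10 genes are named, with the sites that opened or were lost, those past the threshold in limma and those over a start, and of the 45 other genes the 4 that changed most. A site took the highest value of its peaks in a library. An absent peak means that the caller's threshold was not passed, not that the site was closed, and calling varies with depth and with how many fragments fall into open chromatin. Differences in covered bases were tested by exact permutation (2-sided, media permuted within genotypes or genotypes within media) and adjusted over 17290 genes. Fold enrichment was compared with limma 3.58.1 in R 4.3.3. Python 3.11.15, numpy 2.4.6, pandas 2.3.3 and matplotlib 3.10.9 did the rest, and the procedures were tested on simulated data. Alternatives were lists of 33433 peaks, a −log10 q of at least 5, 50% of a site covered, windows without a flank or with flanks of 20 kb, other scalings, a block for the replicate number and leaving out each library. The share of covered length was added after seeing the data. Sequences were read from the GRCm38.p6 genome of RefSeq, whose chromosomes are long enough to hold every peak.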

Additional observations from a re-analysis of the deposited data

Results flagged for a closer look

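Covered bases at 4 of the 10 goblet cell genes differed between genotypes in the effect of d4 ENR before adjustment. Each gave p = 0.02, the smallest p possible, and an adjusted p of 0.325 (exact permutation test within media). Of all genes, 11.1% had the higher effect in AHR KO at an unadjusted p of at most 0.05 in this test. The effect in AHR KO minus that in WT was 3258 bp at *Clca1*, 1284 bp at *Clca3b*, 899.5 bp at *Tff3* and 1762 bp at *Fcgbp*, against a median of 386.2 bp over all genes. In all 4 genes each AHR KO library was below each WT library in WENR and above it in d4 ENR. In d4 ENR, covered length over the genome and mean fragment length were larger in every AHR KO library than in any WT library. Their part in these differences was not tested.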

How the results depend on the processing

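Of 630 values under alternatives, 466 kept their direction and their side of the threshold, or stayed within the limit set for counts. With lists of equal length, 0 genes were lower in d4 ENR (main value 3). The summed difference was −5271 bp in WT between media (main −9736) and −549 bp between genotypes in WENR (main −3400). *Muc2*, *Tff3* and *Gcnt3* reversed to 159.5, 64.2 and 66.6 bp. With these lists 0 sites were lost in WT, against 3.36% of all sites, and 1 opened in AHR KO, against 3.26%. In WENR 1 was WT-only, against 0.61%, and in d4 ENR 1 was AHR KO-only, against 0.829%. At a −log10 q of at least 5, the sums were −12326 bp in WT and −3701 bp in AHR KO between media, and *Clca1* reversed to −1026 bp. At this setting 8 of 40 sites were lost in WT, against 18.3% of all sites, and 2 in AHR KO, against 12.2%. In AHR KO 1 site opened, against 1.21%. In WENR 2 sites were WT-only, against 0.673%, and in d4 ENR 2 were AHR KO-only, against 3.1%. Of the goblet cell sites, only *Clca3b* site 3, *Agr2* site 4 and *Zg16* site 1 entered limma here, and 0 passed between media in WT and 0 in AHR KO. *Gcnt3* sites 1 and 2, *Fcgbp* site 1 and *Spdef* site 2 were not in that fit. With 50% of a site covered, 11 sites were lost in WT, against 22.1% of all sites, and 1 in AHR KO, against 13.4%. Under this rule 2 were WT-only in WENR, against 1.03%, and 1 AHR KO-only in d4 ENR, against 5.91%. Of the 2 opened in AHR KO, against 3.07% of all sites, *Clca1* site 2 took the place of *Clca1* site 1. Over gene bodies alone, sums were −4746 bp in WT, −873 bp between genotypes in WENR and 2640 bp in d4 ENR. *Muc2* and *Clca1* reversed to 73.3 and −244 bp. Of 25 sites there, 2 were lost in WT, against 12.8% of all sites, and 1 opened in AHR KO, against 2.86%. With 20 kb on each side, sums were −19512 bp in WT, −3104 bp in AHR KO and 12173 bp between genotypes in d4 ENR. *Clca1* reversed to −406 bp. Of 66 sites there, 7 were lost in WT, against 12.8% of all sites, and 3 in AHR KO, against 9.49%. As a share of covered length, scaled to the mean covered length, 1 gene was higher (*Gcnt3*) and 0 lower in d4 ENR, sums were −478 bp in WT, 4094 bp in AHR KO (main −288.5, reversed) and 1393 bp between genotypes in d4 ENR, and *Muc2*, *Clca3b*, *Tff3*, *Agr2*, *Spdef*, *Zg16* and *Gcnt3* reversed to 150, 218, 102.5, 484, 96.2, 181 and 427 bp. The cause of these changes was not tested.

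The numbers of the libraries were not taken as pairs, since not every same-numbered pair correlated over 0.1. The correlation was between the deviations of the 2 libraries from their group means. It was −0.107 to 0.021 between media and 0.026 to 0.265 between genotypes. In a group of 2 libraries these deviations mirror each other, so the correlations are a weak guide to pairing. With the replicate number as a block, p in the exact permutation test cannot fall below 0.125, so no gene could pass (main 3). In limma with that block, 1 site passed in AHR KO (*Gcnt3* site 2, main 2). The difference in covered bases at *Tff3* reversed to 25.2 bp. In limma on fold enrichment, sites past the threshold numbered 1 in WT and 0 in AHR KO with no centring, 1 in AHR KO with quantile normalization, and 6 in WT and 5 in AHR KO on pileup per 1000000 fragments, where *Spdef* site 2 reversed to 0.79, *Zg16* site 1 to −0.50 and *Gcnt3* site 1 to 0.94.

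Leaving out each library in turn gave 0 to 0 genes lower, 2 to 5 sites opened in AHR KO (5 without AHR KO d4 ENR replicate 1, 4 without replicate 2), 4 to 6 lost in WT, 0 to 2 lost in AHR KO, 4 to 5 WT-only in WENR and 0 to 3 AHR KO-only in d4 ENR, and in limma 1 to 3 sites in WT, 0 to 4 in AHR KO (4 without WT d4 ENR replicate 3) and 0 to 1 in the difference between genotypes. Over all sites, 2.86% to 6.37% opened in AHR KO as libraries were left out (6.37% without AHR KO d4 ENR replicate 1, 4.44% without replicate 2). Losses ran from 12.8% to 18.9% in WT and from 9.49% to 16.5% in AHR KO. WT-only sites in WENR ran from 0.759% to 2.3%, and AHR KO-only sites in d4 ENR from 2.84% to 8.49%. The summed difference in AHR KO between media ran from −1006 to 601.5 bp, positive without AHR KO WENR replicate 3 or AHR KO d4 ENR replicate 2 (265 bp), and *Gcnt3* from −168 to 32.2 bp, positive without AHR KO d4 ENR replicate 2. A group left with 1 library was assumed to vary like the others.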
